A study of Mus musculus with 8 samples.

Results

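The genes described here are those of the mouse Zfp series, named zinc finger protein with a number. A region of the deposited table was included when its nearest gene was named Zfp with a digit, Zfp36 excepted, and its centre lay within 5 kb of that gene's transcription start site (TSS). This gave 282 regions of 271 genes, out of 11251 regions in all and 10196 within 5 kb of a TSS. No measured level entered this rule beyond the listing of a region, although members were chosen with earlier results of these data known. Zfp36l1 and Zfp36l2 met the rule by name, although both encode CCCH-type RNA-binding proteins and neither sequence held a C2H2 finger. A further 25 regions nearest to a gene with such a symbol lay beyond 5 kb and were not included.

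Most Zfp proteins read DNA with tandem C2H2 fingers, in which 2 cysteines and 2 histidines hold a zinc ion and each finger contacts a few bases. The largest group adds a Krüppel-associated box (KRAB) at the amino end. KRAB binds TRIM28 (KAP1), which brings SETDB1, HP1 proteins and DNA methyltransferases to lay down silent chromatin, mostly over transposable elements and imprinted loci. KRAB genes lie in tandem arrays that arose by duplication. Other Zfp genes encode activators, partners of corepressor complexes and proteins that act on RNA.

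H3K9ac, the acetylated form of lysine 9 on histone H3, sits at active promoters and was mapped by chromatin immunoprecipitation and sequencing. The cells were epithelium of the terminal ileum. Their donors were C57Bl/6 mice, wild type, on vehicle or on 150 mM butyrate for 7 days. Butyrate is a short-chain fatty acid of gut bacteria that inhibits histone deacetylases. Each group had 3 H3K9ac libraries, named S1 to S3 for vehicle and S4 to S6 for butyrate, and 2 input libraries were not used here. Levels are given as RPKM, in which reads are divided by the length of the region in kb and by the library's depth. Between 1255251 and 1828591 reads of a library fell in the listed regions, and a typical (median) region held 82 to 120 of them. All libraries were scaled to the same depth, so a gain or loss of acetylation shared by every region could not be seen. Whether each library was a mouse of its own is not stated in the labels. The p-values therefore reflect the spread among these libraries, which may be technical in part. In a bulk preparation, a change of the mark in each cell and a change in the share of cells carrying it cannot be told apart. Of 12 intestinal epithelial marker genes, 11 had a region near the TSS, with a median of 4.93 RPKM and Lgals4 as the exception. Of 9 leukocyte markers only Laptm5 and Ptprc had one (median 1.09 RPKM), and of 7 stromal and endothelial markers only Vim (1.08 RPKM).

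H3K9ac regions were found at 266 of 393 annotated protein-coding Zfp genes (67.7%). Over all protein-coding genes the figure was 8811 of 21924 (40.2%). The share was similar for Zfp genes with a KRAB box, 156 of 236 (66.1%), and without one, 110 of 157 (70.1%). The other 5 names, Zfp267, Zfp33b, Zfp652os, Zfp783 and Zfp939, matched no protein in the annotation used for the KRAB search. Among genes studied for their function, no region within 5 kb was listed for Zfp57, a KRAB protein that maintains imprints, for Zfp423, a regulator of fat cell commitment, or for Zfp521, a regulator of progenitor cells. A gene with no region in the table may still carry the mark below the level at which regions were called.

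The regions sat over the start of the genes. The authors' deposited table annotated 159 to an intron, 90 to a promoter and 14 to a 5′ UTR. A further 7 were intergenic there, 5 non-coding, 4 at a transcript end and 3 exonic. By the GENCODE annotation 223 of the 282 regions covered their own TSS, where the 5 names without a matched protein count as not covering. It was reached by 226 regions going by the distances in the authors' deposited table. A start of another protein-coding gene was covered by 18 regions, so their signal cannot be assigned to the Zfp gene alone. Of these 18, 15 covered their own start as well, and 4 lay over another Zfp gene and 14 over a gene of another kind. Starts of non-coding transcripts were not searched, so further regions may cover one. The centres nearest the distance limit were those of Zfp324 at -3892 bp from the TSS, with 1.81 ± 0.20 RPKM in vehicle and 1.82 ± 0.28 with butyrate (mean ± SD of 3 libraries), and of Zfp563 at 3433 bp, with 2.75 ± 0.16 and 2.99 ± 0.36. Just outside lay a weak region of Zfp236 at 7101 bp, with 1.06 ± 0.35 in vehicle and 0.892 ± 0.352 in butyrate.

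**Figure D1:**
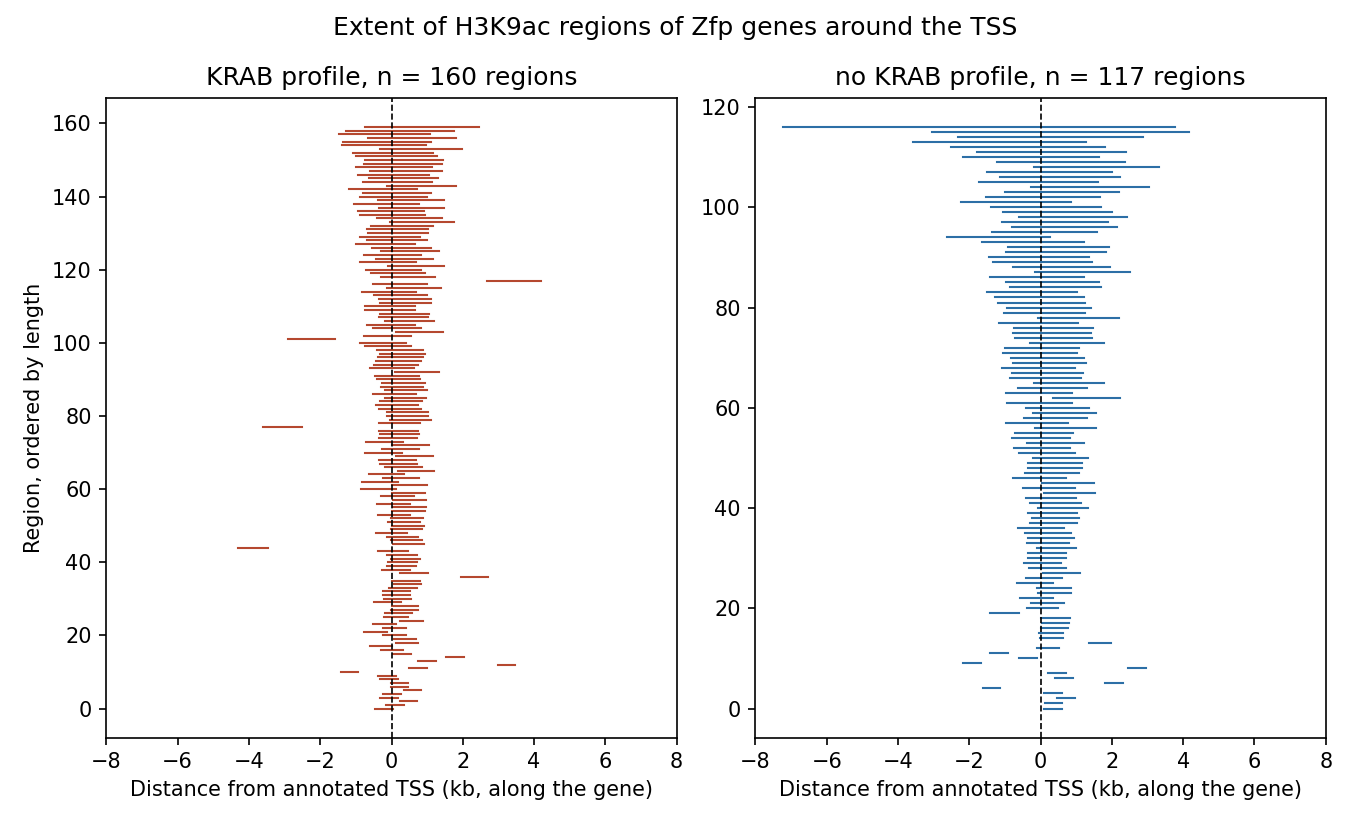
Position of each Zfp region relative to its annotated TSS, in kb along the gene (horizontal), with 1 line per region ordered by length (vertical), for genes with a KRAB box (160 regions, red) and without (117 regions, blue). Lines are drawn around the listed centre; most cross the dashed TSS line, and the KRAB regions are shorter, with a median of 1146 bp against 1772 bp.

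KRAB genes carried shorter and less dense regions than the other Zfp genes. The median length was 1146 bp with KRAB and 1772 bp without, and 1512.5 bp over the other regions within 5 kb of a TSS. The median level was 2.73 RPKM with KRAB and 3.72 without, and 3.23 over those other regions. The order was the same in every library. The KRAB medians were 2.70, 2.59 and 2.76 RPKM in vehicle S1 to S3, and 2.84, 2.80 and 2.73 in butyrate S4 to S6. The medians without KRAB, in the same order, were 3.60, 3.65, 3.49, 3.71, 3.67 and 3.64. The lowest median without KRAB thus lay above the highest with it. A KRAB region therefore rested on fewer reads, a median of 66.6 per library against 150.2. The predicted proteins also differed in length of the finger array, with a median of 12 C2H2 fingers with KRAB and 7 without, and at most 37.

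The strongest regions belonged to genes without a KRAB box. Zfp335, whose product is a cofactor of nuclear receptors and of histone H3 methyltransferase complexes, had the highest mean (chr2:164910283-164912493, mm10, covering the TSS). Its levels were 10.3, 8.98 and 8.25 RPKM in vehicle and 10.9, 10.4 and 10.4 in butyrate. Zfp36l2, which binds AU-rich elements and promotes mRNA decay, followed with 9.62, 10.2 and 9.85 in vehicle and 9.52, 8.06 and 8.75 in butyrate. Behind these 2 genes came Zfp236 (chromosome 18), with 6.68 ± 0.13 RPKM in vehicle and 7.63 ± 0.56 in butyrate, and Zfp638, an RNA-binding protein that takes part in silencing of retroviral DNA, with 6.64 ± 0.43 and 7.66 ± 0.71. The highest KRAB gene was Zfp746, which encodes the Parkin substrate PARIS, at 7.44 ± 0.85 RPKM in vehicle and 6.45 ± 0.69 in butyrate.

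The level of a Zfp region went with its CpG content, in both classes. The Spearman correlation of CpG dinucleotides per kb with mean RPKM was 0.66 over the 282 regions, 0.63 within the 160 KRAB regions and 0.54 within the 117 others. It was 0.60 over the 9914 other regions within 5 kb. The GC percentage of a region went with its level about as closely. Its Spearman correlation with mean RPKM was 0.68 over all Zfp regions, 0.61 with KRAB, 0.62 without and 0.59 over the other regions. These points share the same libraries and CpG is part of a wider difference in base composition, so the values are descriptions. In the 71 Zfp regions with fewest CpG, 1.58 to 23.7 per kb, the median level was 2.06 RPKM and 57 were KRAB regions. In the 71 with most, 50.4 to 130.7 per kb, the median was 4.09 RPKM and 21 were KRAB regions. CpG density had almost no relation to the difference with butyrate, with a Spearman correlation of -0.02 over 272 regions.

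**Figure D2:**
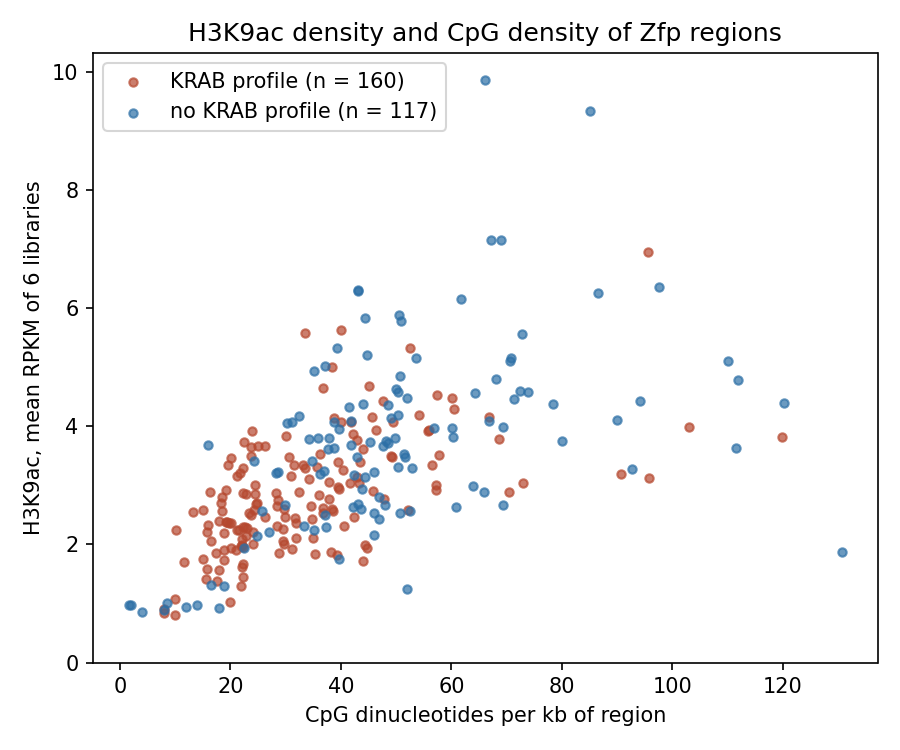
CpG dinucleotides per kb of region (horizontal) against the mean H3K9ac level of the 6 libraries in RPKM (vertical), 1 point per Zfp region, with KRAB genes in red (n = 160) and others in blue (n = 117). Level and CpG density are higher together in both classes, and the KRAB points gather at the low end of both axes.

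Promoter sequences from RefSeq (GRCm38.p6, 250 bases before the start to 50 after) matched 185 of the 282 regions, 111 of KRAB genes and 72 of genes without KRAB. The median count of CpG in the 300 bases was 10 with KRAB and 24 without, and 24 for 5695 other promoters with a region within 5 kb. Their median GC content was 53.0%, 64.5% and 62.7% in the same order. Short motifs were counted on both strands. The SP/KLF box GGGCGG was present in 38.7% of KRAB promoters, 63.9% of the other Zfp promoters and 69.8% of those 5695, against 35.7% of all 32851 promoters in the set. The NF-Y box CCAAT was in contrast more frequent with KRAB than without, at 51.4% of KRAB promoters, 33.3% of other Zfp promoters, 34.4% of the 5695 and 37.4% of all. The ETS core CCGGAAG was found in 23.4% and 20.8% of the Zfp promoters with and without KRAB, 21.2% of the 5695 and 8.9% of all. The cyclic AMP element TGACGTCA was rare, at 7.2% with KRAB and 1.4% without, against 3.7% and 1.8% in the same backgrounds. The YY1 motif ATGGCGGC was present in 7.2% with KRAB and 2.8% without, against 6.4% of the 5695 and 2.2% of all. The ZNF143 motif ACTACAA was present in 6.3% and 2.8%, against 4.1% and 3.2%. For both motifs the share without KRAB was 2 of 72 promoters. A TATAAA box was present in 5.4% of KRAB promoters, 5.6% of the other Zfp promoters, 6.5% of the 5695 and 13.6% of all promoters. The shares were not adjusted for GC content, so a motif difference cannot be told apart from one of base composition. A match is a string of letters in this window and says nothing on binding.

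No Zfp region was called as different between butyrate and vehicle. The question of the design was whether butyrate altered histone acetylation, and it was tested with limma on log2(RPKM + 1), with Benjamini-Hochberg adjustment over 10529 regions with a mean of at least 1 RPKM. Of the 282 Zfp regions 272 passed that filter, and 0 of them, as of the whole table (0.0%), had an adjusted p under 0.05. Their smallest adjusted limma p was 0.49. The unadjusted limma p was under 0.05 at 21 of the 272 regions (7.72%), against 7.27% of all tested regions. Of these 21, 14 were higher (5.15%) and 7 lower (2.57%) with butyrate, against 3.35% and 3.91% of all. The groups did not overlap at 30 Zfp regions (11.0%), against 13.0% of all tested regions. At 20 of them (7.35%) butyrate was higher and at 10 (3.68%) lower, against 6.11% and 6.85% of all. The total shares were close to those over the whole table, while the share lay above the background for higher regions and below it for lower ones, which was not tested. Limma's voom on the reads recovered from the RPKM values called 16 of 11251 regions (0.142%) and no Zfp region, with a smallest adjusted p of 0.21. Restricted to regions with 25 or more mean reads, voom called 9 of 9048 (0.0995%) and again no Zfp region. Its unadjusted p was under 0.05 at 19 of the 282 Zfp regions, against 9.49% of all. An FDR under 0.1 was given by the authors' deposited table to 28 regions (0.249%), none of them a Zfp region. A p under 0.05 was given by the authors' deposited table to 18 of the 282 Zfp regions, against 1068 of all 11251 (9.49%). By voom and by the deposited table, the Zfp share was thus lower than that of all regions, which was not tested.

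The differences at Zfp regions were small in both directions. The median log2 fold change, butyrate over vehicle on the log2(RPKM + 1) scale, was 0.01 with an SD of 0.15 between regions. Over all tested regions the median was 0.00. Values ran from -0.43 to 0.43. A value above 0 was found at 151 regions (55.5%) and one below 0 at 121, against 50.0% above 0 over the whole table. There were 88 higher and 69 lower among KRAB regions (median 0.02) and 60 higher and 50 lower among the others (median 0.01). Neither count was firm: KRAB regions were 79 higher and 78 lower without S2, and the others 53 higher and 57 lower without S1 and likewise without S6. The median half-width of the unadjusted 95% interval of a single Zfp region was 0.26, which is a different measure from the SD between regions. Of the 208 regions that covered their own TSS and that of no other protein-coding gene, 119 were higher and 89 lower. In 90 tested regions of other zinc finger families, chosen by name, 55 were higher and 35 lower, with a median of 0.04.

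**Figure D3:**
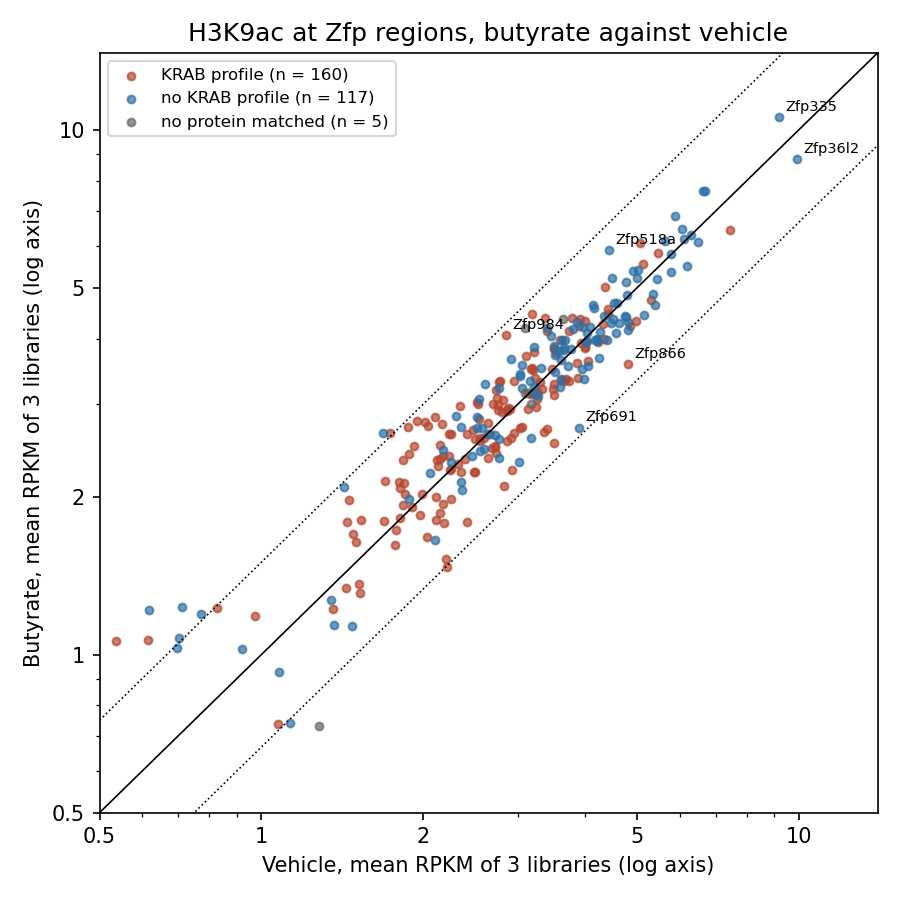
Mean H3K9ac in vehicle (horizontal) against butyrate (vertical), both in RPKM of 3 libraries on log axes, for the 282 Zfp regions, with KRAB genes in red, others in blue and 5 without a matched protein in grey. The solid line marks equal levels and the dotted lines a 1.5-fold difference; most points lie close to the solid line, and those outside the dotted lines have means under 3 RPKM.

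Among regions higher with butyrate, Zfp984 had the smallest p of limma. It is a KRAB gene with 11 C2H2 fingers on chromosome 4 (chr4:147808770-147809916, mm10, over the TSS). Its levels were 2.94, 2.54 and 3.08 RPKM in vehicle and 4.13, 3.90 and 4.15 in butyrate. The groups did not overlap, and the butyrate libraries lay close together. The log2 fold change was 0.39 ± 0.10 (SE), with an unadjusted limma p of 0.0019 and a Benjamini-Hochberg adjusted p of 0.49. In the authors' deposited table its log2 fold change was 0.50 and its FDR 0.187, the smallest of the Zfp regions there. Zfp518a, a gene without KRAB whose product has been linked to H3K9 methyltransferase complexes, was next (chr19:40894275-40895770). Its levels were 5.42, 4.05 and 3.82 RPKM in vehicle and 5.58, 5.94 and 6.18 in butyrate. Vehicle S1 lay just under the lowest butyrate library, and the log2 fold change was 0.36 ± 0.11 with an adjusted limma p of 0.57. Zfp335, the densest region, differed by 0.19 ± 0.08 with an adjusted limma p of 0.64, and its highest vehicle library, S1, stood close to the lowest butyrate library.

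The 250 bases before the starts of these 3 genes are shown because they differ in CpG content although all 3 regions were higher in every butyrate library than in any vehicle library. They are from RefSeq GRCm38.p6, written 5′ to 3′ along the gene, with matches to the motifs counted above in capitals on either strand.
Zfp984: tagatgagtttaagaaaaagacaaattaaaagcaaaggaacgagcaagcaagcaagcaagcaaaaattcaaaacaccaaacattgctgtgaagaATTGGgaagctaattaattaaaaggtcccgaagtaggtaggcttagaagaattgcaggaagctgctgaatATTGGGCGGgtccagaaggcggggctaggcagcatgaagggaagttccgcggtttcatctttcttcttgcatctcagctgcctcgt
Zfp518a: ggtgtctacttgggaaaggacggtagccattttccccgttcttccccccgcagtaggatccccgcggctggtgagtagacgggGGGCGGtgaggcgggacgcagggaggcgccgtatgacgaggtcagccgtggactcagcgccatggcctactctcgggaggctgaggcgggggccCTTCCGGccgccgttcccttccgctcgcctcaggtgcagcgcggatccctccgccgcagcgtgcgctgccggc
Zfp335: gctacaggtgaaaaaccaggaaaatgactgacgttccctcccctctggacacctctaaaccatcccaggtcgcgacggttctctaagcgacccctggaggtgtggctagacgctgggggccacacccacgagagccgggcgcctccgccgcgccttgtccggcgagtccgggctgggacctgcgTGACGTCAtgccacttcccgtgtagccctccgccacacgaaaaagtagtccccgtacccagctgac
Zfp984 (chr4:147809789-147810038, minus strand) held 7 CpG and had the CCAAT box in reverse at 2 places, the second overlapping a GGGCGG box. Zfp518a (chr19:40894455-40894704, plus strand) held 28 CpG, with a GGGCGG box and a reversed ETS core. Zfp335 (chr2:164911751-164912000, minus strand) held 21 CpG and a full cyclic AMP element.

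The remaining 5 of the 8 regions with the lowest p in this direction had lower levels than these 3. Zfp414 (chr17:33629197-33629697), at 23 reads per library, had 1.55, 1.57 and 1.93 RPKM in vehicle and 2.43, 2.12 and 3.38 in butyrate. Its log2 fold change of 0.43 ± 0.15 was the largest among Zfp regions. Zfp595, in a KRAB array on chromosome 13, had 2.01, 1.62 and 1.59 RPKM in vehicle and 3.45, 2.17 and 2.30 in butyrate, so that S4 alone stood far above the rest. The chromosome 17 KRAB gene Zfp51 had 2.34, 1.45 and 2.06 in vehicle and 2.41, 3.05 and 2.89 in butyrate, with S1 and S4 nearly level. Zfp952, also on chromosome 17, had 2.13, 2.12 and 2.06 in vehicle and 2.75, 2.50 and 3.26 in butyrate, a clean separation of 0.30 ± 0.12 on the log2 scale. The groups overlapped at Zfp970, with 1.44, 1.86 and 2.32 RPKM in vehicle and 2.22, 2.90 and 3.01 in butyrate. The adjusted limma p of these regions was 0.57 to 0.64.

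Among regions lower with butyrate, Zfp691, a gene with 7 C2H2 fingers and no KRAB, had the smallest p (chr4:119173518-119174445, over the TSS). Its levels were 3.30, 4.47 and 3.91 RPKM in vehicle and 3.11, 2.23 and 2.78 in butyrate. The groups did not overlap, although vehicle S1 and butyrate S4 were close. The log2 fold change was -0.40 ± 0.13, with an unadjusted limma p of 0.0068 and an adjusted p of 0.57. The KRAB gene Zfp866 (chr8:69774397-69775154) had 4.97, 5.03 and 4.41 RPKM in vehicle and 2.86, 4.13 and 3.76 in butyrate, a log2 fold change of -0.35 ± 0.11. That region also covers the start of Gm20422. Zfp931 (chr2:178077747-178078544), another KRAB gene, had 2.04, 2.32 and 2.25 RPKM in vehicle and 1.36, 1.47 and 1.73 in butyrate, a separated difference of -0.35 ± 0.14. Only 28.6% of 100-base tiles of the Zfp931 region mapped uniquely to the genome, so reads of near-identical copies may be split or shared there.

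The same 250 bases are shown for these 3 separated regions, for comparison with those that were higher, with the motif matches in capitals.
Zfp691: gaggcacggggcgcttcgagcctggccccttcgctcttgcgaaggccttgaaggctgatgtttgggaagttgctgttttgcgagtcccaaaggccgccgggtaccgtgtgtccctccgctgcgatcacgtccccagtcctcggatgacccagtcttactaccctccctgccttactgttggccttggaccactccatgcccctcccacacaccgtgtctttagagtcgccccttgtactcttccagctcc
Zfp866: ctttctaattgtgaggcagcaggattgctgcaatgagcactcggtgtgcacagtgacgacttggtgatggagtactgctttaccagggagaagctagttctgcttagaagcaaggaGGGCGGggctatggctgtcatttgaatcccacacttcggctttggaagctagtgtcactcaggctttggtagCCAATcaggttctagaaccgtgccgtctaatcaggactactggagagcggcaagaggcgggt
Zfp931: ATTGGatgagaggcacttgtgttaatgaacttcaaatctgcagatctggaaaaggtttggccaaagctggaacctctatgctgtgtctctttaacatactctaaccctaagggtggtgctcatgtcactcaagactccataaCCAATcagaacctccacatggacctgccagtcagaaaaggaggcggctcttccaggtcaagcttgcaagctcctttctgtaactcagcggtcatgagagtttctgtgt
Zfp691 (chr4:119173857-119174106, minus strand) held 15 CpG and none of the motifs. Zfp866 (chr8:69774912-69775161, minus strand) held 8 CpG, a GGGCGG box and a CCAAT box. Zfp931 (chr2:178078426-178078675, minus strand) held 2 CpG and a CCAAT box in each orientation.

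Zfp661 and Zfp707, both KRAB genes, were separated too. Zfp661 had 2.33, 2.49 and 1.83 RPKM in vehicle and 1.71, 1.24 and 1.45 in butyrate. Zfp707 had 2.95, 3.12 and 2.69 in vehicle and 2.55, 2.25 and 1.94 in butyrate. At Zfp273, in the chromosome 13 array, the groups overlapped, with 2.09, 3.59 and 2.81 in vehicle and 2.16, 2.35 and 1.78 in butyrate. The dense region of Zfp36l2 was lower in every butyrate library than in any vehicle library, by -0.16 ± 0.07 on the log2 scale, and its adjusted limma p was 0.67.

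**Figure D4:**
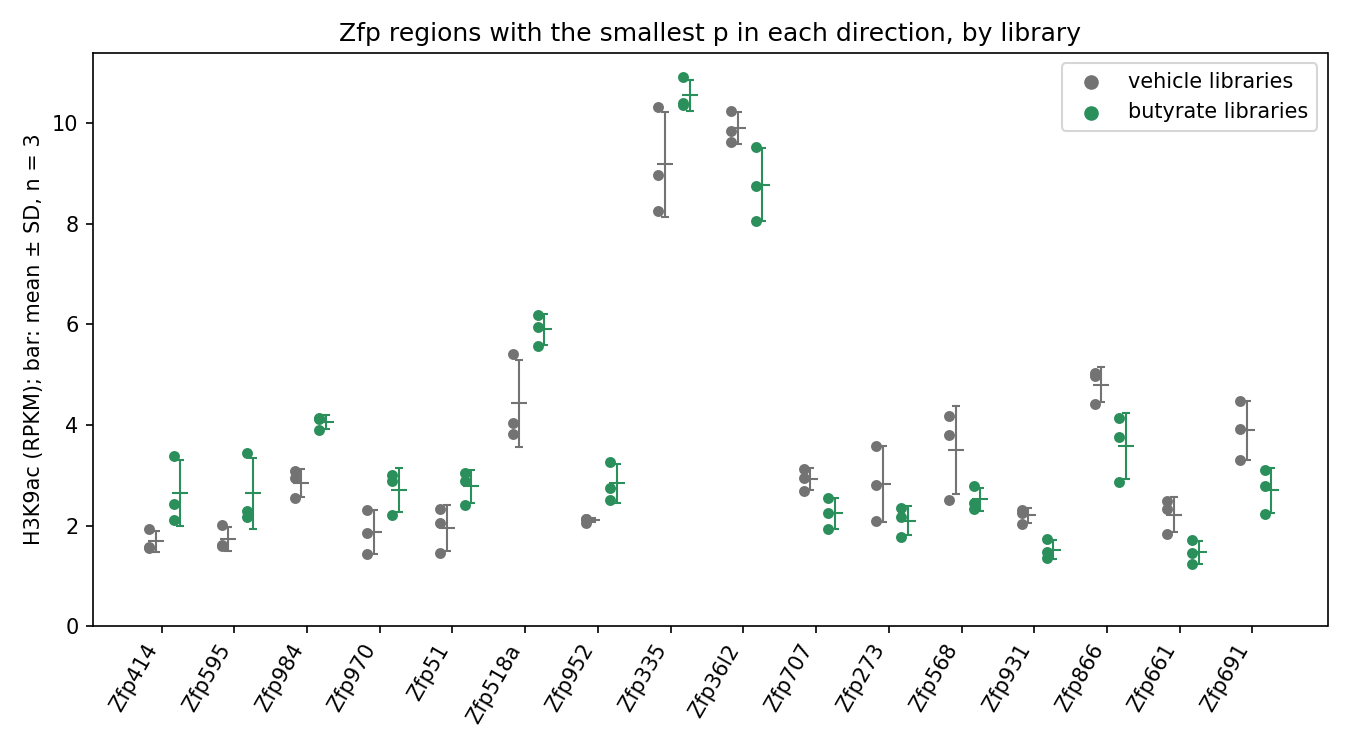
H3K9ac in RPKM (vertical, from 0) in each vehicle (grey) and butyrate (green) library for the 8 Zfp regions with the smallest limma p in each direction (horizontal), ordered by log2 fold change from highest to lowest. Bars are the mean ± SD of 3 libraries; Zfp335 and Zfp36l2 stand at 8 to 11 RPKM, the other regions lie under 7, and the groups overlap at Zfp970, Zfp568 and Zfp273.

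Zfp genes that act on RNA included both directions. Of 14 listed genes 11 had a region, 5 of them higher and 6 lower in butyrate (median log2 fold change -0.03), and 2 had an unadjusted limma p under 0.05, which 7.27% of all tested regions had. Those 2 were Zfp36l2, lower as above, and Zfp638, with 7.10, 6.54 and 6.26 RPKM in vehicle and 7.72, 8.34 and 6.92 in butyrate. The groups overlapped at Zfp638 through S1 and S6. Zfp598, the ubiquitin ligase that senses collided ribosomes, had 4.74 ± 0.16 RPKM in vehicle and 4.42 ± 0.49 in butyrate.

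Activators and GC-rich promoter binders were among the denser regions. Of 13 listed symbols 10 had a region under that symbol, 8 higher and 2 lower, with a median log2 fold change of 0.05. Here and in the other gene lists, a gene with more than 1 region was counted by the one with most reads. For Zfp219 that was the region at -1147 bp, with a log2 fold change of 0.06, while its region at -43 bp had -0.19. Only Zfp335 had an unadjusted limma p under 0.05, 1 of 10 tested, against 7.27% of all tested regions. The count of 8 higher was 5 without S6. Zfp281, which binds GC-rich promoters, had 6.27, 6.07 and 5.28 RPKM in vehicle and 6.12, 7.93 and 6.48 in butyrate, with overlapping groups. Zfp143, an activator bound at many promoters, had 6.50 ± 0.87 RPKM in vehicle and 6.10 ± 0.27 in butyrate. Zfp410, known for its control of Chd4, was level at 6.30 ± 0.37 and 6.30 ± 0.21, with a log2 fold change of 0.00 ± 0.08.

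Partners of corepressor complexes were even in direction. Of 22 listed genes 16 had a region, 7 higher and 9 lower, with a median of -0.02 (9 and 7 without S5). Zfp518a alone had an unadjusted limma p under 0.05 at its main region, 1 of 16 tested, against 7.27% of all tested regions. Zfp462, a partner of H3K9 methyltransferases, had 3.40 ± 0.57 RPKM in vehicle and 4.19 ± 0.60 in butyrate. Zfp217, a component of CoREST complexes with the demethylase LSD1, had 3.52 ± 0.18 and 3.45 ± 0.56. Zfp827, a partner of the NuRD complex, had 5.78 ± 0.11 and 5.36 ± 0.11, a separated pair of groups with a log2 fold change of -0.09 ± 0.08.

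KRAB genes with studied functions were found in both directions. Of 20 listed genes 12 had a region and 11 were tested, 7 higher and 4 lower, with a median log2 fold change of 0.08. Without S5 the count was 4 higher and 7 lower, with a median of -0.06. Zfp568, which represses a placental Igf2 transcript, had 4.18, 3.81 and 2.51 RPKM in vehicle and 2.34, 2.45 and 2.78 in butyrate. Its groups overlapped because S3 was low, and its log2 fold change was -0.33 ± 0.14. Zfp316 had 3.95, 3.59 and 2.03 in vehicle and 3.61, 5.14 and 4.62 in butyrate, again overlapping. Zfp568 and Zfp316 alone on this list had an unadjusted limma p under 0.05, 2 of 11 tested, against 7.27% of all tested regions. Zfp445, a guardian of imprints, had 2.05 ± 0.44 RPKM in vehicle and 2.72 ± 0.46 in butyrate, and Zfp809, which silences retroviruses that use a proline tRNA primer, 1.70 ± 0.61 and 2.14 ± 0.51. None of these passed the adjusted test.

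Of 15 listed symbols of lineage regulators 8 had a region under that symbol and 7 were tested, 4 higher and 3 lower with a median of 0.07. Among the tested, Zfp335 was also counted with the activators, and Zfp503 and Zfp703 with the corepressor partners. Zfp335 alone had an unadjusted limma p under 0.05, 1 of 7 tested, against 7.27% of all tested regions. Zfp710 had 6.40, 6.73 and 5.44 RPKM in vehicle and 5.27, 5.37 and 5.83 in butyrate, with overlapping groups. Zfp467, a regulator of fat and bone cell fate, had 4.92 ± 0.66 and 5.38 ± 0.56. The weak region of Zfp750, a regulator of epidermal differentiation, fell under the filter at 0.771 ± 0.300 and 1.19 ± 0.35.

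The proteins that KRAB domains recruit are encoded by genes outside the series. Of 23 listed symbols, where Fam208a is an older symbol of Tasor, 18 had a region. Of these, 15 were higher and 3 lower in butyrate. Their median log2 fold change was 0.07, and 0 passed the adjusted limma test. The count of 15 was 10 without S2. Dnmt1, the maintenance DNA methyltransferase, had 2.68 ± 0.20 RPKM in vehicle and 3.88 ± 0.89 in butyrate, a separated difference of 0.39 ± 0.13 with an adjusted limma p of 0.57. Cbx5, which encodes HP1 alpha, had overlapping groups and a log2 fold change of 0.43 ± 0.19. The scaffold Trim28 had 2.42 ± 0.32 and 2.28 ± 0.32, and the H3K9 methyltransferase Setdb1 1.56 ± 0.25 and 1.79 ± 0.33.

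Many members lay side by side. The 282 regions were on 19 chromosomes, with 60 on chromosome 7, 36 on chromosome 17, 31 on chromosome 13 and 22 on chromosome 8. Joining neighbours at most 500 kb apart gave 12 clusters of at least 5 genes, which held 111 regions of 107 genes, 88 of them KRAB genes. The largest, on chromosome 13 (chr13:67060905-67814541), had H3K9ac at 23 of its 23 annotated Zfp genes, all with KRAB. There 8 regions were higher and 14 lower with butyrate, and the median log2 fold change was -0.03. This became 11 and 11 without S1 or without S6, with medians of 0.01 and 0.00. On chromosome 17 (chr17:21008569-22867464) 15 of 20 annotated Zfp genes had a region, 12 higher and 3 lower, with a median of 0.10. The count of 12 was 9 without S6 and 10 without S2, S3 or S4. Members of this array at the ends of its range were Zfp51, above, and Zfp995, with 2.47, 3.52 and 4.09 RPKM in vehicle and 2.63, 2.63 and 2.71 in butyrate. In the 6 chromosome 7 clusters the medians ran from -0.10 to 0.16, and 3 of these medians changed sign without some single library.

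**Figure D5:**
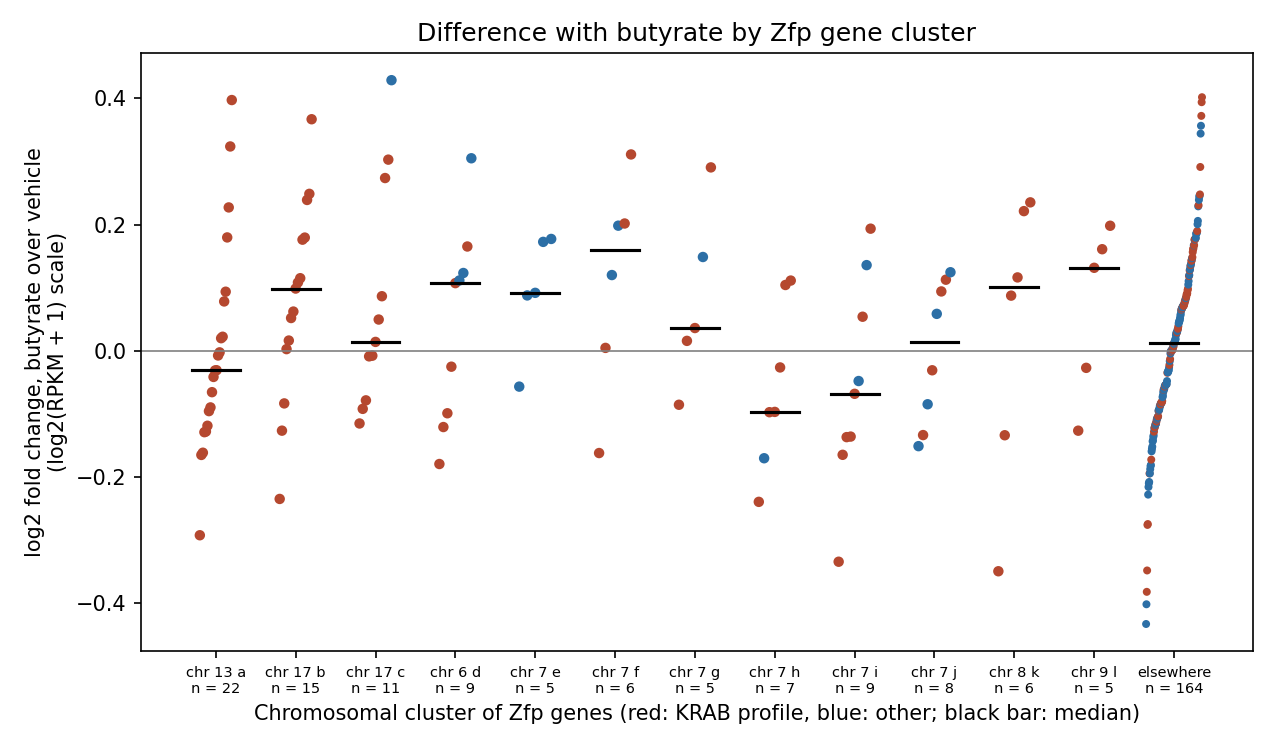
Log2 fold change, butyrate over vehicle on the log2(RPKM + 1) scale (vertical), of each tested Zfp region by chromosomal cluster (horizontal, with n), KRAB genes in red, others in blue and cluster medians as black bars. Every cluster holds values on both sides of 0, the median being lowest at -0.10 and highest at 0.16, and the 164 regions elsewhere span nearly the whole range.

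A small cluster on chromosome 8 (chr8:69208362-69775154) held neighbours that went opposite ways. Zfp963, a KRAB gene named here after its values were seen, had 3.39, 3.41 and 3.40 RPKM in vehicle and 4.02, 4.26 and 4.11 in butyrate (chr8:69749230-69750396). The next Zfp region along was that of Zfp866, lower in every butyrate library as given above. Zfp868 (chr8:69624492-69626045), chosen in the same way, had 5.09, 4.19 and 5.89 in vehicle and 6.38, 6.40 and 5.49 in butyrate. The log2 fold changes of Zfp963 and Zfp868 were 0.22 ± 0.09 and 0.24 ± 0.11, and all tiles of these 3 regions mapped uniquely. Of the 6 tested regions of this cluster 3 had an unadjusted limma p under 0.05 (7.27% of all tested regions had), and none passed the adjusted test. The cluster was singled out after its values were seen.

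Duplicated genes limited what could be assigned to 1 locus. Under 90% of 100-base tiles mapped uniquely in 20 of 160 KRAB regions (12.5%), in 1 of 117 regions without KRAB (0.855%) and in 1.78% of the other regions within 5 kb. Over 17020 pairs of the 185 matched promoters the median identity was 45.3%, and 5 pairs reached 80%, all on the same chromosome. Zfp119a, Zfp959 and Zfp119b on chromosome 17 made up 3 of them, with identities of 92.3% (Zfp119a and Zfp959), 91.0% (Zfp119a and Zfp119b) and 94.0% (Zfp959 and Zfp119b). The other pairs were Zfp456 with Zfp429 (87.0%) and Zfp747 with Zfp764 (86.0%). The 250 bases before the start of the 3 most alike promoters are shown because nearly the same sequence stood at 3 measured loci, with the CCAAT box in capitals.
Zfp119a: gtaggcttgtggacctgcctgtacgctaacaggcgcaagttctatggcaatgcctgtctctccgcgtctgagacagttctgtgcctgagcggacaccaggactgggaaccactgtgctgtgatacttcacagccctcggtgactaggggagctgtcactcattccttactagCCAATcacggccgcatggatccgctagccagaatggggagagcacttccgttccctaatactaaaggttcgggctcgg
Zfp959: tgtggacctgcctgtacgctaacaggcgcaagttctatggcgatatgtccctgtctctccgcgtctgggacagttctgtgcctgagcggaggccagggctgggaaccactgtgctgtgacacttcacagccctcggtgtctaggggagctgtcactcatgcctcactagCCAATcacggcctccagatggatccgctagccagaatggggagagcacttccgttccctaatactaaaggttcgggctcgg
Zfp119b: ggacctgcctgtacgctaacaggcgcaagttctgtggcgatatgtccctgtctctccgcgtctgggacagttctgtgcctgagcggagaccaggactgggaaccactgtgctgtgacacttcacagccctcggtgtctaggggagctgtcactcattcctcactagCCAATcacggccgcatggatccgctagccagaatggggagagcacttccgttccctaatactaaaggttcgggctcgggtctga
They lie at chr17:55878954-55879203 on the minus strand, chr17:55891843-55892092 on the plus strand and chr17:55945260-55945509 on the minus strand, in that order, and each held a single CCAAT box and 12 or 13 CpG.

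The 3 copies had like levels of H3K9ac. Zfp119a had 4.01, 2.73 and 2.78 RPKM in vehicle and 3.36, 3.24 and 2.82 in butyrate. Zfp959 had 3.01, 3.04 and 3.27 in vehicle and 3.44, 4.41 and 3.27 in butyrate, with S3 and S6 level. Zfp119b had 3.30, 3.95 and 3.27 in vehicle and 3.43, 2.70 and 3.24 in butyrate. Their log2 fold changes were 0.00 ± 0.13, 0.19 ± 0.11 and -0.13 ± 0.11, within the spread between libraries. Unique tiles made up 78.6%, 67.9% and 89.5% of the 3 regions, so part of the signal may be shared between them.

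In 11 genes 2 regions met the rule. At Zfp516, a cofactor in brown fat on chromosome 18, the region at 1283 bp from the TSS had 1.70, 1.26 and 1.30 RPKM in vehicle and 1.84, 2.61 and 1.81 in butyrate, a separated difference of 0.34 ± 0.16 with an adjusted limma p of 0.68. The denser region at 292 bp had 4.63 ± 0.50 and 4.29 ± 0.30, a difference of -0.09 ± 0.10. At Zfp219 the region at -43 bp had 4.80 ± 0.44 RPKM in vehicle and 4.16 ± 1.03 in butyrate, and the longer one at -1147 bp, which also covers the start of Tmem253, 3.16 ± 0.18 and 3.32 ± 0.20. At Zfp868 the second region, at 3225 bp, held 8.67 reads per library and was left untested.

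The weakest members could not be judged at this depth. The 10 untested regions held a mean of 8.67 to 13.0 reads per library and belonged to Zfp708, Zfp692, Zfp174, Zfp142 and Zfp750 and to second regions of Zfp868, Zfp292, Zfp865, Zfp69 and Zfp637. Of those tested, Zfp939 had 0.990, 1.07 and 1.78 RPKM in vehicle and 0.216, 1.34 and 0.639 in butyrate. Its log2 fold change of -0.43 ± 0.25 was the lowest of all Zfp regions and rested on 13 reads per library. Zfp296, a pluripotency gene, had 1.08 ± 0.30 RPKM in vehicle and 0.925 ± 0.25 in butyrate. A region of Zfp940 at 587 bp ranged from 0.112 to 2.13 RPKM within the butyrate libraries alone.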

How the data were processed

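H3K9ac was measured in 6 libraries of ileal epithelium, 3 per treatment. STAR, Picard, HOMER and edgeR are listed as tools, and mm10 as the build, in the submitters' processing notes, without version or role. How regions were called is not given in the sources used here. Per the file headers, the deposited table holds RPKM per library. It also gives group means of RPKM and CPM, and the log2 fold change, log2 CPM, p-value and FDR of each region, all computed by the authors. Multiplied by region length, 100% of the deposited RPKM values were whole numbers of 1-read steps (tolerance 0.01 reads). This gave reads and effective library sizes of 17846924 to 25805595. Column names gave each library's group but not its sample.

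The main test was limma 3.58.1 (R 4.3.3) on log2(RPKM + 1), with trend and robust empirical Bayes, regions of mean RPKM of at least 1, and Benjamini-Hochberg adjustment. Alternatives were voom on recovered reads, other scalings, filters and pseudocounts, and leaving out each library. Fits were tested on simulated data. KRAB boxes were found with a profile (pyhmmer 0.12.3) built from 103 mouse windows of 39 residues and searched against 21564 proteins translated from GENCODE M21 (E-value at most 1e-05). Unique mapping used minimap2 2.31 on 100-base tiles every 50 bases (mapping quality of at least 10), and identity used edlib 1.3.9.post1. Sequences are RefSeq GRCm38.p6. The tested regions named are the 8 lowest p-values of either direction, 2 per gene list, the 5 highest and 3 lowest levels, and others given for their list, cluster, sequence or second region. Members and lists were chosen with earlier results of these data known.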

Additional observations from a re-analysis of the deposited data

How the results depend on the processing

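No Zfp region was called under any fit that was run. Over the whole table limma on log2(RPKM + 1) called 0 regions, also at an adjusted p under 0.1, whereas voom on recovered reads called 16 with all regions and 9 with at least 25 mean reads, and the cause was not tested. The median log2 fold change of Zfp regions, 0.01, was 0.03 in both voom fits (0.031 and 0.026), which use no pseudocount of 1 RPKM. The count of Zfp regions above 0, 151, ran from 134 to 159 over the other fits, 134 with fewer regions tested (mean RPKM of at least 2) and 159 with no filter. The 21 Zfp regions with an unadjusted limma p under 0.05 numbered 14 to 24 when 1 library was left out, and 14 without S2 or without S5. Rechecks of single regions covered the 26 chosen by p, list or level (not the others described, some of which lie near 0). Of their 380 values over 15 settings, 378 kept their direction and their side of the threshold. The weak region of Zfp940 at 587 bp reversed, with a log2 fold change of -0.12 to 0.63 over the leave-one-out fits, -0.03 without S1 and -0.12 without S6. No paired analysis was possible because the columns carry no replicate numbers of the labels. Counting only regions over their own and no other protein-coding start (119 of 208 above 0) or with at least 25 mean reads (145 above 0) was chosen after seeing the data. The median half-width of the unadjusted 95% interval of KRAB regions, at a median of 66.6 reads per library, was 0.29 on the log2 scale. Smaller differences mostly fell short of an unadjusted limma p of 0.05 at this depth. Larger ones, down to -0.43 and up to 0.43 among Zfp regions, did not pass the adjusted test either.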
